A study of Homo sapiens with 6 samples.

Results

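Importins are the receptors that carry proteins from the cytoplasm into the nucleus. The set described here held 10 of the 20176 protein-coding genes of the annotation, chosen by gene name: IPO13, IPO4, IPO5, IPO7, IPO8, IPO9, IPO11, KPNB1, TNPO1 and KPNA2. The question was whether open chromatin at these genes, and at the IPO13 promoter above all, differed between breast cancer cells with and without SAP30, a subunit of the SIN3 histone deacetylase complex. Open chromatin was mapped by ATAC-seq, in which the Tn5 transposase tags accessible DNA, in 3 libraries of parental MDA-MB-231 cells and 3 libraries of SAP30-KO1 cells. MDA-MB-231 is a human triple-negative breast cancer line, and both groups were grown in DMEM with 10% fetal bovine serum. SAP30-KO1 cells are a CRISPR/Cas9 knockout line made by mixing several selected knockout cells, so they are neither 1 clone nor the whole edited population. Only this knockout line was analysed here. The sources used here do not say whether the libraries of a group came from separate cultures, so the p-values measure the spread between these libraries, which may be technical.

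Nuclear import receptors of the importin beta family bind cargo in the cytoplasm, pass through the nuclear pore and release it when the GTP-bound form of Ran binds them in the nucleus. Importin alpha proteins such as KPNA2 are adaptors that read the classical nuclear localization signal and hand the cargo to KPNB1. Most of the remaining members bind their own cargo directly. IPO13 works in both directions, as it brings proteins such as the SUMO-conjugating enzyme UBC9 into the nucleus and carries others out.

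For each library the deposited data list summits, the single base at which each peak of open chromatin is highest. The lists held 29762 to 40650 summits, and since they give no numbers of reads, how deeply each site was sequenced is unknown. Each summit has a score, the −log10 of its q value, and scores were turned into percentiles within their own list from 0 to 100, because lists called separately share no common scale. The promoter level of a gene was the percentile of its best summit within 1 kb of any of its annotated start sites, and 0 where there was none. A percentile belongs to 1 summit and is not summed over a gene. The level can still be higher at genes with more annotated starts, since the best summit at any start counts. IPO9 had 4 such starts and IPO5 had 24. Deviations are standard deviations (SD) over 3 libraries. Groups were compared with the exact permutation test, two-sided, over the 20 assignments of 6 libraries, whose smallest p is 0.1, so no single gene could pass 0.05. That p arises only when the groups do not overlap, that is, when all 3 SAP30-KO1 values lie above or all below the 3 parental values. The promoter of SAP30 itself stood at 84.7, 64.8 and 81.3 in the parental libraries and at 71.8, 49.5 and 89.5 in SAP30-KO1 (exact permutation p = 0.7), which cannot check the knockout, since a small edit need not close a promoter. Of the markers of mesenchymal breast cancer cells VIM, CD44, EGFR, CAV1, ZEB1 and AXL, all 6 had a promoter summit in some library and 4 in all libraries. Of the luminal and epithelial markers ESR1, PGR, GATA3, CDH1 and EPCAM, 0 had one in all libraries and CDH1 had none, but GATA3 and EPCAM had one in 5 libraries each, more than ZEB1 and AXL with 3 each.

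Importin promoters were often open in both groups. A promoter summit was present in all 6 libraries at 6 of the 10 genes (60%), beside 34.5% of all protein-coding genes, and in at least 1 library at 9 of 10 (90%), beside 62.3%. These shares were not matched for the number of annotated starts. From the highest mean level to the lowest, the order was IPO11, KPNB1, IPO5, TNPO1, IPO13, KPNA2, IPO7, IPO9, IPO4 and IPO8. For every pair of neighbours in that order the ranges over the 6 libraries overlapped or touched. Overlapping ranges do not compare genes within a library, and KPNB1 stood above its neighbour IPO5 in each of the 6. The ends of the order were far apart, since the lowest IPO11 value was 94.5 and the highest IPO4 value 25.0, with IPO8 at 0 throughout. Of the 9 members with a promoter summit, 0 had groups that did not overlap, beside 10.6% of the 12572 genes so tested (6.01% higher and 4.57% lower in SAP30-KO1). The mean was higher in SAP30-KO1 at 3 members and lower at 6, with a median difference of -1.35 percentile points, beside 0.67 over all tested genes. The lowest adjusted exact permutation p over the 12572 genes was 0.945. With any 1 library left out, the groups did not overlap at 18.5% to 20.9% of the genes, which is the background for the members below whose groups came apart that way.

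**Figure D1:**
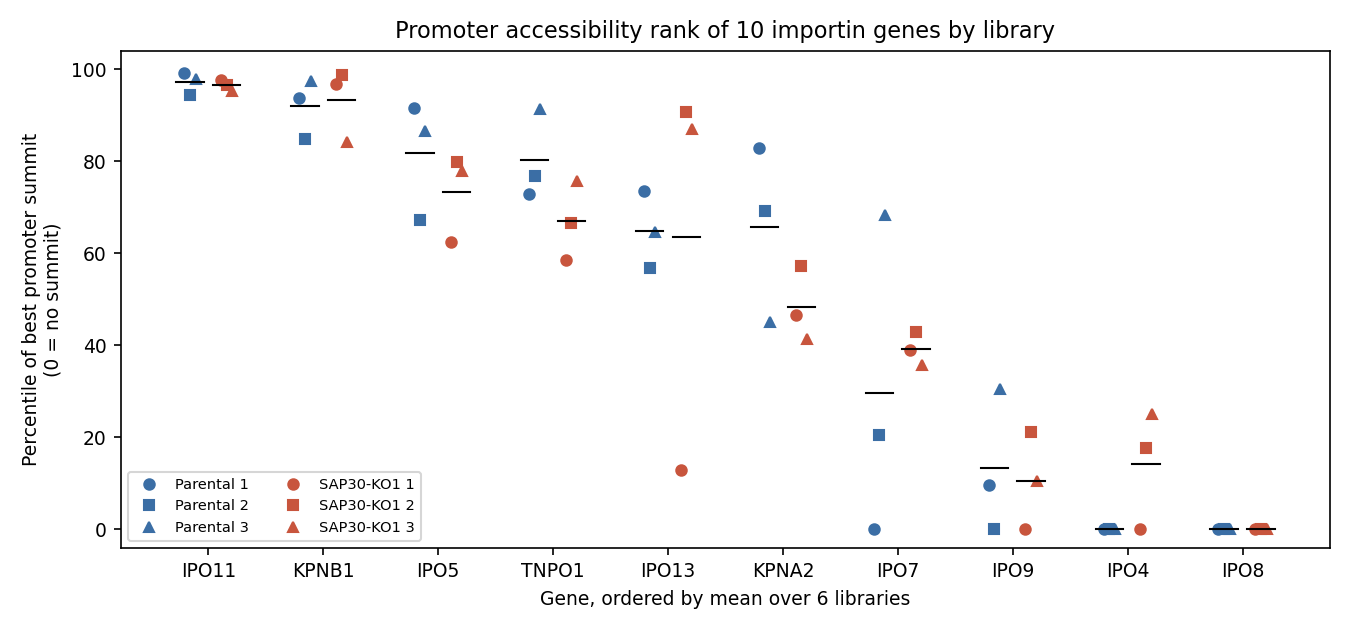
Percentile of the best promoter summit within its library (y axis, 0 where there was no summit) for the 10 importin genes (x axis, ordered by the mean over 6 libraries), with 1 point per library and a bar at each group mean. At none of the 9 genes with a summit do the parental and SAP30-KO1 points separate, and the SAP30-KO1 points of IPO13 run from 12.9 to 90.8.

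The group means of IPO13 were close while its SAP30-KO1 libraries were far apart. IPO13 lies on the plus strand at chr1:44412622-44433694 (all coordinates are GRCh37, hg19), and it lies back to back with an antisense RNA gene, RP11-7O11.3, whose start is 399 bp away. That start, at 44412223, is nearer than the IPO13 start to several of the summits below, including the strongest, in SAP30-KO1 library 2. The promoter values given for IPO13 therefore cannot be assigned to IPO13 alone. In parental library 1 the promoter had 1 summit, at 44412376, which is 246 bp upstream of the gene start, with a score of 8.50 and a percentile of 73.5. Parental library 2 had its summit 3 bp away, at 44412379, with a score of 6.72 and a percentile of 56.7. Parental library 3 had its summit at 44412150, 472 bp upstream, with a score of 6.94 and a percentile of 64.5. Within the parental group the percentiles spanned 16.8 points.

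SAP30-KO1 library 1 differed from the other libraries in having 2 promoter summits, both weak. They lay at 44412017, 605 bp upstream, with a score of 3.52 and a percentile of 12.9, and at 44412562, 60 bp upstream, with a score of 3.47 and a percentile of 12.0. These are the outermost positions of all 7 IPO13 promoter summits, with every summit of the other libraries between them. SAP30-KO1 library 2 had its summit at 44412157, 465 bp upstream, with a score of 15.5 and a percentile of 90.8. SAP30-KO1 library 3 had its summit at 44412481, 141 bp upstream, with a score of 12.4 and a percentile of 87.1. Both of these stood above all parental libraries, and library 1 stood below all of them.

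**Figure D2:**
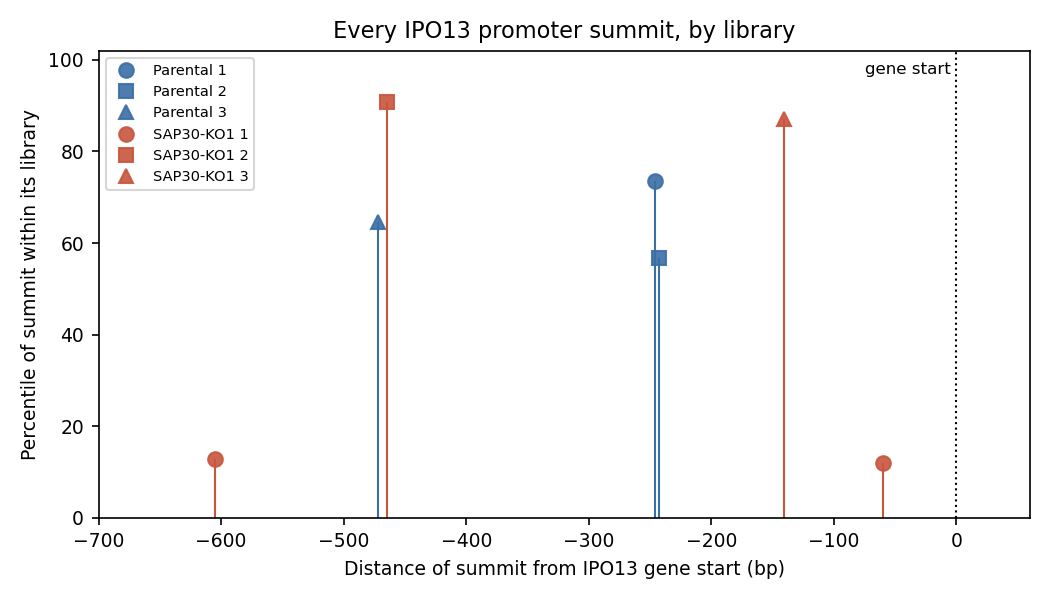
Every IPO13 promoter summit by its distance from the gene start in bp (x axis, negative upstream) and its percentile within its library (y axis), with colour for the group and shape for the replicate. The 2 summits of SAP30-KO1 library 1 are the lowest, at 12.9 and 12.0, and lie outside the positions of all other summits.

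The mean percentile of IPO13 was 64.9 ± 8.41 (SD) in parental cells and 63.6 ± 43.9 in SAP30-KO1, a difference of -1.35 points (exact permutation p = 1, n = 3 per group). In the limma fit over 6964 genes with a summit in every library (the 6966 with repeated symbols taken once), the SE of this difference was 18.7 points and the adjusted p was 0.997. The sign of this value depended on single libraries. The difference was 24.0 points without SAP30-KO1 library 1, when the groups no longer overlapped, and 2.96 without parental library 1. On the short arm of chromosome 1, which holds IPO13, loci open in all libraries had a median shift of 5.28 points towards SAP30-KO1, and when summits were ranked only among those of their own arm the IPO13 difference was -4.55 points.

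Few genes had SAP30-KO1 libraries as far apart as IPO13, while SAP30-KO1 library 1 was the low one at many genes. The SAP30-KO1 values of IPO13 spanned 77.9 points, and 29 of the 6966 genes with a promoter summit in all libraries (0.416%) had a span at least as large, where the median span was 19.5. This span was singled out after its value was seen, and is a description. SAP30-KO1 library 1 had the lowest value of the 6 at 24.8% of those genes and parental library 2 at 24.7%, beside 7.19% to 16.1% for the remaining libraries. SAP30-KO1 library 1 lay below all parental libraries, with the other SAP30-KO1 libraries above them all, at 210 genes (3.01%). The same order with SAP30-KO1 library 2 as the low one was found at 39 genes (0.560%), and with library 3 at 116 genes (1.67%). A promoter with 2 summits in SAP30-KO1 library 1 and 1 in each other library was not rare, at 229 genes (3.29%), and the share for the other libraries was 2.67% to 3.40%.

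**Figure D3:**
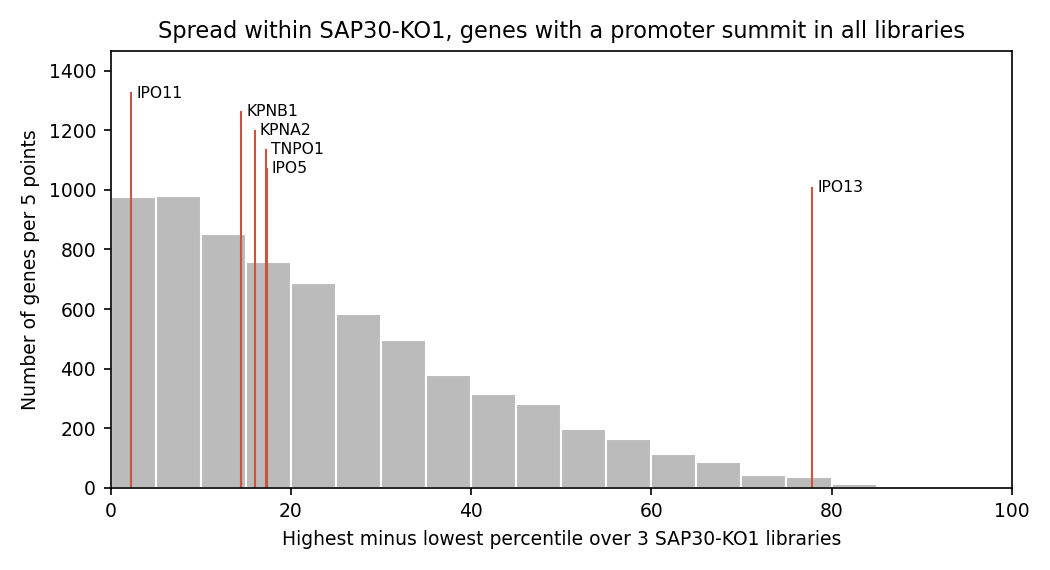
Histogram of the highest minus the lowest promoter percentile over the 3 SAP30-KO1 libraries (x axis, percentile points) for the 6966 genes with a promoter summit in all 6 libraries (y axis, genes per bin of 5 points), with lines at the 6 importin genes among them. IPO13 lies at 77.9, and the other members lie between 2.27 and 17.3.

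The genes whose 6 values were most like those of IPO13, by the mean absolute difference over the 6 libraries, were MEAK7 (5.81 points), MTCL1 (6.13 points) and STAT3 (6.58 points). STAT3, a transcription factor of cytokine signalling, stood at 71.1, 61.6 and 72.0 in the parental libraries and at 12.6, 72.3 and 81.0 in SAP30-KO1. MEAK7 stood at 83.6, 58.3 and 57.4 in the parental libraries and at 16.8, 81.4 and 89.9 in SAP30-KO1. A low SAP30-KO1 library 1 is part of the pattern by which they were chosen.

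The place of the IPO13 summits varied between libraries as well as their strength. The best summits of the 6 libraries spanned 464 bp, with the weak summit of SAP30-KO1 library 1 at 44412017 as the outer end. Those of the other libraries lay between 44412150 and 44412481. The span of 464 bp was more than at 87.9% of the 6319 genes compared, where the median was 311 bp. Genes with a span above the promoter width, 1 kb on each side of a start, were left out, which kept 6319 of 6966 genes. The sequence given here, chr1:44412140-44412439 on the plus strand, holds 4 of the 7 summits, 1 each from 4 libraries, and overlaps 71 bases of an exon of RP11-7O11.3 while touching no exon of IPO13. Capitals mark the letters of 8 common promoter motifs, searched on both strands: GGGCGG of SP/KLF factors, the CCAAT box, the ETS motif CCGGAAG, the cyclic AMP response element TGACGTCA, the E-box CACGTG, the motif TGANTCA of AP-1, and the motifs of NRF1 and YY1. No marked letters belong to more than 1 of these motifs. A match is a description of letters and not a bound site.
IPO13 upstream region: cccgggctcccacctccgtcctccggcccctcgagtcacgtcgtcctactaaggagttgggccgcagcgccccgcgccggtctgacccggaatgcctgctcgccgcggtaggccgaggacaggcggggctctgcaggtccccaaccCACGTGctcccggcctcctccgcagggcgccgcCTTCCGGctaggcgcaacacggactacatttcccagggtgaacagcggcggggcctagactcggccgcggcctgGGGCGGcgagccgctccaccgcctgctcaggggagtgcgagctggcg
The window has a GC content of 73.7% and holds 1 match each to the SP/KLF motif, the ETS motif and the E-box. In the windows from 250 bases before to 50 after the start of 20163 protein-coding genes, the SP/KLF motif occurs in 52.1%, the ETS motif in 11.8% and the E-box in 8.33%. The printed sequence was placed by its summits and lies mostly further upstream than those windows. In the window around its own start IPO13 has 2 SP/KLF, 0 ETS and 0 E-box matches.

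KPNB1 and KPNA2 make up the classical import pathway, and neither differed beyond its spread. KPNB1, importin beta, lies on the plus strand at chr17:45726842-45762871, with the start of KPNB1-DT on the other strand 27 bp away. KPNB1 had exactly 1 summit in its window in every library. Its promoter stood at 93.6, 84.9 and 97.5 in the parental libraries and at 96.8, 98.6 and 84.2 in SAP30-KO1. The lowest library of each group was near 85 and the groups overlapped over most of their range. The means were 92.0 ± 6.45 and 93.2 ± 7.87, a difference of 1.17 points (exact permutation p = 0.8, limma SE 3.89, adjusted p = 0.973), which became -2.38 without parental library 2, -0.620 without SAP30-KO1 library 1 and -1.55 without SAP30-KO1 library 2.

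KPNA2, the importin alpha adaptor, lies on the plus strand at chr17:66031752-66043480. It stood at 82.9, 69.2 and 45.1 in the parental libraries and at 46.5, 57.3 and 41.3 in SAP30-KO1. Parental libraries 1 and 2 were above all SAP30-KO1 libraries and parental library 3 was among them. The means were 65.7 ± 19.1 and 48.4 ± 8.14, a difference of -17.4 points, the largest in size of the 9 tested members (exact permutation p = 0.3, limma SE 14.3, adjusted p = 0.793). It was -27.7 without parental library 3, when the groups no longer overlapped, and -8.79 without parental library 1.

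The place of the KPNA2 summit was steadier than its strength. The 6 best summits lay between 66031606 and 66031666, a span of 60 bp, smaller than at all but 2.86% of the genes compared. A tandem repeat with many GC boxes, from 66031568 to 66031662, holds 5 of these 6 summits, which is why chr17:66031502-66031751 on the plus strand is shown, with GGGCGG and its reverse complement in capitals.
KPNA2 upstream region: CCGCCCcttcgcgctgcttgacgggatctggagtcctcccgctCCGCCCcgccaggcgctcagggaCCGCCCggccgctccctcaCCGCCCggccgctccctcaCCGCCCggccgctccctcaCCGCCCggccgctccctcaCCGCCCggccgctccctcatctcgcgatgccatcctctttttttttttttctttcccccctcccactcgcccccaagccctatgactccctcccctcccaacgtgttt
All 6 summits lie inside this window of 250 bases. It holds 7 matches to GGGCGG and 5 head-to-tail copies of a unit of 19 bases, ccgcccggccgctccctca, 95 bases in all.

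IPO5 and IPO7 import ribosomal proteins and histones among other cargo. The annotated gene region of IPO5 is on the plus strand at chr13:98605912-98676550, but in none of the 6 libraries was there a summit within 1 kb of its first start. Its open promoter was at an inner start, with summits 22382 to 22772 bp inside the gene. That promoter stood at 91.6, 67.2 and 86.6 in the parental libraries and at 62.5, 79.8 and 77.9 in SAP30-KO1. The SAP30-KO1 values lay mostly between the low parental library 2 and the other parental libraries. The means were 81.8 ± 12.9 and 73.4 ± 9.50, a difference of -8.39 points (exact permutation p = 0.4, limma SE 10.5, adjusted p = 0.884). It was -15.7 without parental library 2, when the groups no longer overlapped, and -2.93 without SAP30-KO1 library 1.

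The stretch before the inner start of IPO5 nearest to most of its promoter summits is shown, chr13:98628419-98628718 on the plus strand. The motif letters named for IPO13 are in capitals. The summit of parental library 3 is nearest to a different inner start, 409 bp away.
IPO5 inner start: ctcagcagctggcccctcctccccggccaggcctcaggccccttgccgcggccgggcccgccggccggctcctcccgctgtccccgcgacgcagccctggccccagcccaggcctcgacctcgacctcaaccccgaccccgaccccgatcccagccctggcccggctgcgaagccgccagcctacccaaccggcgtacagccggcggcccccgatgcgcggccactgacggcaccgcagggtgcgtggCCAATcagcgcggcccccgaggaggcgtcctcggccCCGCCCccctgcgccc
The printed stretch has a GC content of 79.3%, and 4 of the 6 best summits lie inside it. Those of parental libraries 1 (91.6) and 3 (86.6), the highest in percentile, lie upstream of it. It holds 1 match each to the SP/KLF motif and the CCAAT box, which 35.8% of promoters hold. The 300 bases around the inner start had a ratio of observed to expected CpG of 0.894, whereas those around the first start, which had no summit, had 0.215, beside a median of 0.694 over all promoters. Among the members this ratio did not always follow the summits. It was 0.891 at IPO8, which had no summit, and 0.595 at TNPO1, where every library had a promoter summit.

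IPO7 lies on the plus strand at chr11:9406199-9469674. It had no summit in parental library 1, 20.6 in parental library 2 and 68.3 in parental library 3, and stood at 39.0, 42.9 and 35.7 in SAP30-KO1. The parental libraries spread on both sides of the SAP30-KO1 libraries, which were close together. The means were 29.6 ± 35.0 and 39.2 ± 3.63, a difference of 9.58 points (exact permutation p = 0.7). It was -5.23 without parental library 1 and 28.9 without parental library 3, when the groups no longer overlapped.

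IPO8, the closest relative of IPO7, had no open site at all. It lies on the minus strand at chr12:30781922-30848803, and 0 summits fell between 10 kb upstream of it and its end in any library. The nearest summit to any of its starts was 29958 to 59339 bp away, depending on the library. The start is not GC-poor, as the window from 250 bases before to 50 after it has a GC content of 62.7%, at the 57.2 percentile of promoters. The windows of the same kind around the starts of KPNB1 and TNPO1 hold no match to any of the 8 motifs, yet both genes had a promoter summit in every library. The 250 bases upstream of IPO8, chr12:30848804-30849053 read on the minus strand, are given as an example without a summit. They also hold no match to any of the 8 motifs.
IPO8 upstream region: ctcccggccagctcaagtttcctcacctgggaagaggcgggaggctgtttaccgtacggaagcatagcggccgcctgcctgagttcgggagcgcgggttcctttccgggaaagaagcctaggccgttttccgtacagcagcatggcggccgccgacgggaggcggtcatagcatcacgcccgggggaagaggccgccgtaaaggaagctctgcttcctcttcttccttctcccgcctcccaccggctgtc
A library without a summit had no peak that passed the q value threshold, which is not the same as no accessibility, and the depth behind that is unknown.

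IPO4 and IPO9, both importers of histones among other cargo, had weak promoters. IPO4 lies on the minus strand at chr14:24649425-24658075, with the start of a long noncoding RNA gene on the other strand 45 bp away. IPO4 had no promoter summit in the 3 parental libraries or in SAP30-KO1 library 1, with 17.7 in SAP30-KO1 library 2 and 25.0 in library 3. Both summits were low in score, at 3.93 and 4.38. They came from the 2 longest SAP30-KO1 lists, of 40650 and 34262 summits. The list of parental library 1 held 36694 summits and none at the IPO4 promoter. The effect of list length was not tested. The means were 0 and 14.2 ± 12.9 (exact permutation p = 0.4), and the difference was 21.4 points without SAP30-KO1 library 1, when the groups no longer overlapped. About 6.8 kb upstream, at the start of TM9SF1, a locus seen in 5 libraries stood at 26.7, 23.0 and 22.6 in the parental libraries, at 25.8 and 35.7 in SAP30-KO1 libraries 2 and 3, and had no summit in SAP30-KO1 library 1.

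IPO9 lies on the plus strand at chr1:201798277-201853419, with the start of IPO9-AS1 on the other strand 61 bp away. It stood at 9.58, no summit and 30.4 in the parental libraries and at no summit, 21.2 and 10.6 in SAP30-KO1. Each group had 1 library without a summit and the groups overlapped throughout. The means were 13.3 ± 15.6 and 10.6 ± 10.6, a difference of -2.75 points (exact permutation p = 1), which turned to 5.79 without parental library 3 and 2.54 without SAP30-KO1 library 1. Near the 3′ end of IPO9, in an exon, a second locus stood at 23.6 in parental library 1, 54.6 in parental library 2 and 35.0 in SAP30-KO1 library 1, and was absent from the other libraries.

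TNPO1, or transportin, imports RNA-binding proteins with a proline-tyrosine signal, and its promoter was lower in mean in SAP30-KO1 with overlapping ranges. It lies on the plus strand at chr5:72112139-72212560, with the start of TNPO1-DT on the other strand 59 bp away. The TNPO1 promoter stood at 72.9, 76.8 and 91.4 in the parental libraries and at 58.5, 66.6 and 75.7 in SAP30-KO1. Only SAP30-KO1 library 3 reached into the parental range. The means were 80.4 ± 9.74 and 67.0 ± 8.61, a difference of -13.4 points (exact permutation p = 0.2, limma SE 11.5, adjusted p = 0.801). The groups no longer overlapped without parental library 1 (-17.1 points) or without SAP30-KO1 library 3 (-17.8 points), and the difference was -7.88 without parental library 3. An inner start of TNPO1 about 31.8 kb into the gene had a weaker summit in 4 libraries, at 39.0 and 16.9 in parental libraries 1 and 2 and at 23.5 and 28.6 in SAP30-KO1 libraries 2 and 3.

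IPO11 had the strongest promoter of the set and the only importin locus at which the groups did not overlap. IPO11, an importer of ubiquitin-conjugating enzymes, lies on the plus strand at chr5:61699799-61924409 and shares its promoter with DIMT1, which starts 29 bp away on the other strand. The shared promoter stood at 99.2, 94.5 and 97.8 in the parental libraries and at 97.5, 96.6 and 95.3 in SAP30-KO1. All 6 values were among the top 6% of their lists and the groups overlapped. The means were 97.1 ± 2.43 and 96.5 ± 1.14, a difference of -0.67 points (exact permutation p = 0.7, limma SE 1.53, adjusted p = 0.950). It was 0.36 without parental library 1 and -2.01 without parental library 2, when the groups no longer overlapped.

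A second IPO11 start, about 8.6 kb into the gene, had a summit in all 6 libraries between 61708214 and 61708653. It stood at 58.2, 60.04 and 45.6 in the parental libraries and at 76.1, 62.3 and 74.7 in SAP30-KO1. Every SAP30-KO1 library was above every parental library, by at least the gap from 60.04 to 62.3. The means were 54.6 ± 7.85 and 71.0 ± 7.56, a difference of 16.4 points (exact permutation p = 0.1, the smallest this design can give). Extending the summits of all libraries by 250 bp on each side and merging those that met gave 56419 loci. Groups did not overlap at 10.1% of them, 5.86% higher and 4.26% lower in SAP30-KO1, so 1 of 19 importin loci is no more than that background. The lowest adjusted exact permutation p over all loci was 0.988. The sequence at this start is shown because it is the locus with that pattern, chr5:61708188-61708487 on the plus strand, and it holds no match to the 8 motifs.
IPO11 inner start: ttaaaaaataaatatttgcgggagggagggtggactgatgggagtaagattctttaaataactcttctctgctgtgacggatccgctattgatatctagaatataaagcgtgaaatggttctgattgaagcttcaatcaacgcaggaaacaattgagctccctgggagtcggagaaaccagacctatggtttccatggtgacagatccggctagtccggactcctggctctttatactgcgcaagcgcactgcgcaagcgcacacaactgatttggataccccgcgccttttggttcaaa
Its GC content of 46.3% is the lowest of the sequences printed here, and 4 of the summits lie inside it. Among these is a weak summit of SAP30-KO1 library 2, at a percentile of 8.04. The best summits of parental library 2 (60.04) and of SAP30-KO1 libraries 1 (76.1) and 2 (62.3) lie downstream of the printed sequence.

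The importin loci outside promoters were few and mostly seen in 1 library. From 10 kb upstream of each gene to its end, the 6 libraries together gave 19 loci, of which 11 were at promoters, 3 further upstream, 4 in introns and 1 in an exon. Summits of all 6 libraries met at 8 of them, 7 at promoters and 1 in an intron of IPO11, and 5 loci had a summit in 1 library only. The IPO11 intron locus, between 61770971 and 61771269, stood at 30.8, 59.1 and 54.1 in the parental libraries and at 61.4, 42.9 and 39.4 in SAP30-KO1, with overlapping groups.

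**Figure D4:**
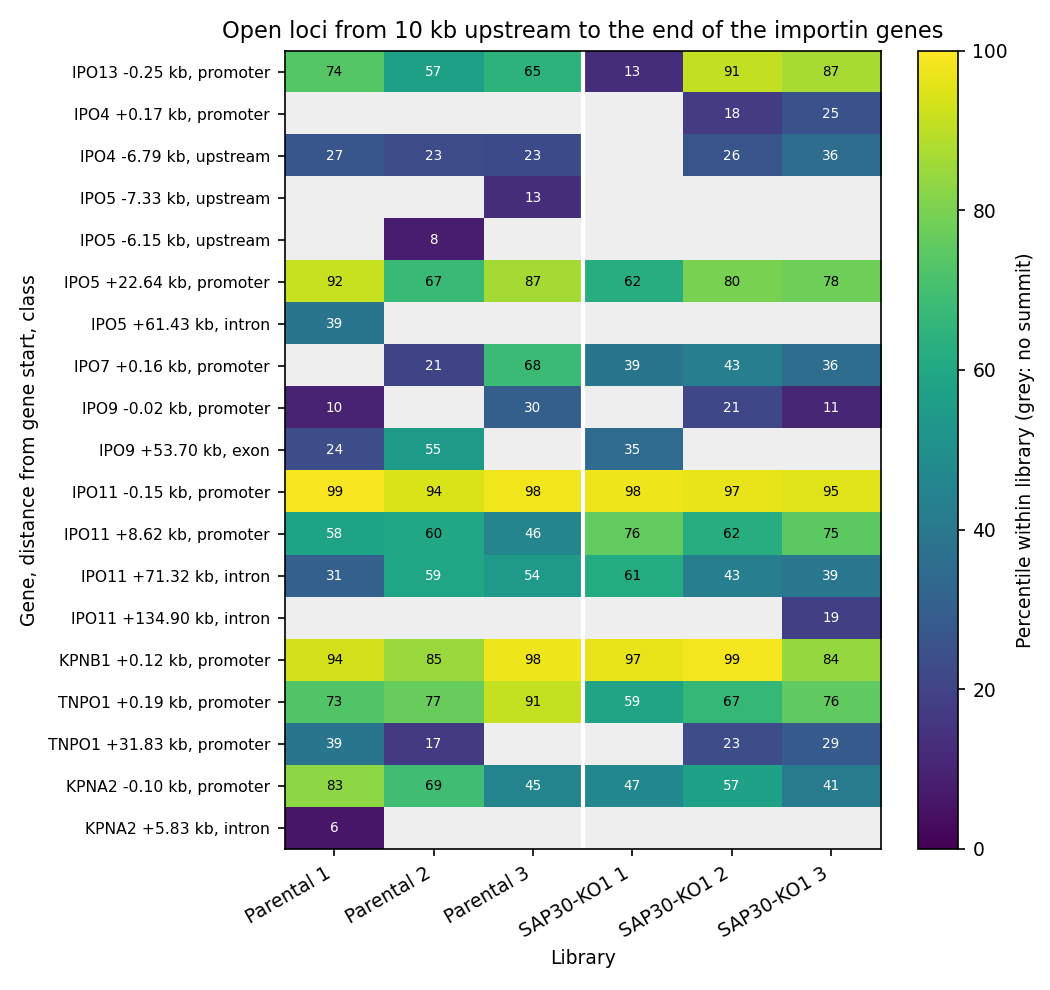
Percentile within its library (colour, printed in each cell, grey where there was no summit) of the 19 loci found from 10 kb upstream to the end of the importin genes (rows, with the distance from the gene start) in the 6 libraries (columns). The IPO11 locus 8.62 kb into the gene is the only row whose SAP30-KO1 values all lie above the parental values, and no row has them all below.

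The number of summits in these windows did not separate the groups as a whole. The 10 windows together held 14, 13 and 12 summits in the parental libraries and 12, 14 and 14 in SAP30-KO1, which is 0.0344% to 0.0427% of each list. The means were 13 ± 1 and 13.3 ± 1.15 summits. Counts that did not overlap were found for IPO5, with 2 summits in each parental library and 1 in each SAP30-KO1 library, and for IPO11, with 3 in each parental library and 4 in each SAP30-KO1 library (exact permutation p = 0.1 for each). Over all genes with a summit in their window, 2.98% had counts that did not overlap, 1.82% with more in SAP30-KO1 and 1.17% with fewer. The extra summits did not recur at 1 place. For IPO5 they were at 3 sites, namely in an intron with 39.0 in parental library 1, upstream with 8.05 in parental library 2 and upstream with 13.1 in parental library 3. For IPO11 they were beside the first start in SAP30-KO1 library 1, beside the inner start in library 2 and in an intron in library 3.

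Over all genes, limma called 0 of 6964 (background 0%) at an adjusted p under 0.05, and 0 of the 6 fitted importin genes. At an unadjusted p under 0.05 it had 461 genes, and 0 importin genes were among them. A p that misses the threshold does not show that the groups were alike, as the SE of the importin differences ran from 1.53 points at IPO11 to 18.7 at IPO13.

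The other genes of nuclear transport also had many open promoters and few separations between the groups. Of 23 such genes, 22 had a promoter summit in some library and 12 in all libraries, and groups did not overlap at 1, where the background is 10.6%. That gene was RANBP17, a member of the importin beta family, which stood at 68.1, 34.2 and 32.9 in the parental libraries and at 68.6, 79.3 and 77.0 in SAP30-KO1. Its means were 45.1 and 75.0, a difference of 29.9 points (exact permutation p = 0.1), although the lowest SAP30-KO1 value and the highest parental value were 68.6 and 68.1. The median difference was 4.12 points over the importin alpha genes (6 of 6 with a summit), 8.69 over the other import and two-way receptors (2 of 3), 8.10 over the exportins (7 of 7) and 7.55 over the genes of the Ran cycle (7 of 7), beside 0.67 over all tested genes. The 8.69 is the middle of 2 values of opposite sign, -12.5 at TNPO3 and 29.9 at RANBP17. Of the Ran cycle genes 4 had a higher mean and 3 had a lower mean, from -16.9 points at RANGAP1 to 29.9 at RAN. Only 3 of the 7 exportins and 3 of the 7 Ran cycle genes had a summit in all libraries, and a missing summit counts as 0. Means were higher in SAP30-KO1 at 16 of the 22 and lower at 6, where all tested genes had 6676 higher and 5896 lower.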

How the data were processed

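The 6 libraries were grouped by the sample labels. Per the methods and the submitters' processing notes, the authors trimmed single-end reads with Trim Galore 0.4.5 (FastQC 0.11.2), aligned them to hg19 with Bowtie2 2.3.3.1, used Picard to take out duplicates and MACS2 2.1.0 to call peaks at a q value of 0.05. Whether reads were shifted for the transposase offset, and how blacklisted and mitochondrial sequence was treated, is not given in the sources used here. An unshifted read moves a summit by a few bases, far less than the windows used. The deposited scores are the −log10 of q values, called per library, and the lowest was 1.31 to 1.33, near 1.30 for the threshold. Positions are 1-based.

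Genes, starts and sequences came from GENCODE release 44 lifted to GRCh37 and its genome. For loci, summits were extended by 250 bp and merged over libraries. The permutation test (SciPy 1.17.1, NumPy 2.4.6) was adjusted by Benjamini-Hochberg over all tested genes or loci, and limma 3.58.1 (R 4.3.3) was fitted with a trended prior to genes with a summit in all libraries. Both were tested on simulated data. All 10 members were named with values, with every IPO13 promoter summit, loci whose groups did not overlap, the 3 genes most like IPO13, and the genes of the nuclear transport lists whose groups did not overlap. The members and lists were chosen with earlier results of these data known. No lists were duplicates, as at most 0.598% of positions were identical between any pair. Alternatives changed the promoter width, q value, list length, ranking, scale and replicates.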

Additional observations from a re-analysis of the deposited data

How the results depend on the processing

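The groups of 0 importin promoters were apart under each of the 9 settings that kept all libraries, and leaving out 1 library gave 0 to 2 such promoters, beside 18.5% to 20.9% of all genes then apart. The number of importin loci apart was 1 under all settings with all libraries and 1 to 3 without 1 library, beside 16.7% to 18.5% of all loci. Groups apart with all libraries stay apart by construction when 1 is left out. The IPO13 difference of -1.35 points turned to 3.41 with summits of q of 0.0001 or less, to 0.785 with the same number of summits taken from each list (29762) and to 0.26 on the log2 scale of the score, and ran from -14.9 to 24.0 without 1 library. Without 1 library the differences ran from -5.23 to 28.9 for IPO7, from -9.42 to 5.79 for IPO9, from -2.01 to 0.36 for IPO11 and from -2.38 to 5.68 for KPNB1. IPO9 also turned on the log2 scale, to 0.064. The causes were not tested. IPO4, IPO5, TNPO1 and KPNA2 kept their direction wherever a difference could be formed; at the first start alone IPO5 had no summit. The difference in summits per library over the 10 windows, 0.333, was -1 with the same number of summits per list, 0.667 with q of 0.0001 or less and 1.33 with nothing upstream counted, and ran from -0.167 to 1 without 1 library. Replicate numbers did not pair the libraries (correlations of same-numbered deviations of -0.018, -0.029 and 0.012), and with the replicate block the IPO13 difference stayed at -1.35 points (exact sign-flip permutation p = 1, smallest possible 0.25), and limma called 0 genes, with 405 at an unadjusted p under 0.05. On normal scores of the rank limma called 1 gene higher and 7 lower, with 0 importin genes. Depth is unknown, so an absent summit is not evidence of closed chromatin.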
